A study of Mus musculus with 8 samples.

Results

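The CXC chemokines are small secreted proteins that steer leukocytes, and 10 of their mouse genes are described here: Cxcl1, Cxcl2, Cxcl3 and Cxcl5, which carry the ELR motif, the interferon-induced Cxcl9, Cxcl10 and Cxcl11, and Cxcl13, Cxcl16 and Pf4. A probe was assigned to a gene when the accession given for it in the scanner files was a RefSeq transcript of that gene. This found 10 probes for 9 of the 10 genes, 2 of them for Cxcl9, among 26148 features tested. Of these 16754 had a gene symbol and the others were transcripts or probes known by an identifier alone, and all are counted as genes in the shares given below. No probe was matched to Cxcl11, and it is not analysed here. All 9 genes passed the filter on dim probes, which asked that at least 2 of the 8 arrays show the probe well above background in a channel.

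The study exposed macrophages from the mouse peritoneum, phagocytes that live in the body cavity around the gut, to LECT2 (leukocyte cell-derived chemotaxin 2, a protein secreted mainly by the liver) and measured total RNA on 8 Agilent arrays. On each array RNA of LECT2-treated cells, labelled with Cy3, was hybridised against RNA of cells kept without LECT2 for the same time, labelled with Cy5. The 4 groups were 0.5 µg/ml for 3.5 h, 5 µg/ml for 3.5 h, 0.5 µg/ml for 48 h and 5 µg/ml for 48 h, called low and high dose at each time, with 2 arrays in each. The early time is 3.5 h in the titles, used here, but 3 h in the labels of the channels. The replicates came from separate experiments on different mice, and all cells, controls included, were kept in medium with serum. Strain, sex and age of the mice, and whether low and high dose arrays of a replicate shared a control culture, were not given in the sources used here. No dyes were swapped, so for a single transcript an equal dye bias on all arrays and a LECT2 effect cannot be told apart.

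Before the results, a conflict in the deposited data has to be stated. Values are minus the deposited log2 ratio, positive where LECT2 exceeds its control, and in 7 of the 8 columns of deposited ratios the best-matching scanner file is recorded under another sample. The 4 columns at 48 h equal the ratio in a scanner file within 0.01 for 100% of single-spot probes. Of the early columns 3 track a file with r = 0.994, 0.978 and 0.974 across probes, and the column of the low dose, replicate 1, follows its own file at r = 0.781. With files matched to columns, the replicates of a group correlated across genes at r = 0.653, 0.754, 0.338 and 0.664 (in the order of groups above), and with files as recorded at r = 0.466, 0.312, 0.281 and 0.318. The matched link puts all 3.5 h arrays on slide 1 and all 48 h arrays on slide 2, so time and slide cannot be told apart. The deposited columns are reported, and values from files as recorded are given beside the chemokines' results and, for the other gene lists, at their end.

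CXC chemokines are named for the spacing of their first cysteines. Those with the ELR motif, a glutamate, leucine and arginine before the first cysteine, act on Cxcr2 and draw neutrophils, and macrophages transcribe them quickly through NF-kB when Toll-like or interleukin-1 receptors are engaged. Cxcl9, Cxcl10 and Cxcl11 lack the motif, act on Cxcr3 and draw activated T cells and natural killer cells, and their transcription is driven by interferons. Cxcl13 draws B cells through Cxcr5 and is made by peritoneal macrophages. Cxcl16 is made as a membrane protein that binds Cxcr6 and is shed by Adam10, and Pf4 (platelet factor 4) is stored in platelet granules.

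Promoters were available for 7 of the 10 genes (RefSeq, build GRCm38.p6), and those of Cxcl1, Cxcl2, Cxcl3 and Cxcl10 are shown because these genes had the largest early responses and because the first 3 share a stretch of sequence. The bases lie just before the annotated start, 150 for the ELR genes and 250 for Cxcl10, at chr5:90891095-90891244 on the plus strand (Cxcl1), chr5:90903749-90903898 on the plus strand (Cxcl2), chr5:90785951-90786100 on the plus strand (Cxcl3) and chr5:92348890-92349139 on the minus strand (Cxcl10). Capitals mark matches, on either strand, to the NF-kB consensus or to GAAA, any 2 bases and GAAA, the core of the interferon-stimulated response element (ISRE).
Cxcl1: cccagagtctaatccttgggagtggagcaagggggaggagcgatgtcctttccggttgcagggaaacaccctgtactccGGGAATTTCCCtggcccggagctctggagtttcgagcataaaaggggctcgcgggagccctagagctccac
Cxcl2: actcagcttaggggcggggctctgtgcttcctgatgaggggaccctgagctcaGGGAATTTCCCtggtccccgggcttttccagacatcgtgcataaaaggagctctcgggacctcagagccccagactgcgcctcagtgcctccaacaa
Cxcl3: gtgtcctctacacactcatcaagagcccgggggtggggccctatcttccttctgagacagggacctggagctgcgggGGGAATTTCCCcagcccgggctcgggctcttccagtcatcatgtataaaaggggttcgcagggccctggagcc
Cxcl10: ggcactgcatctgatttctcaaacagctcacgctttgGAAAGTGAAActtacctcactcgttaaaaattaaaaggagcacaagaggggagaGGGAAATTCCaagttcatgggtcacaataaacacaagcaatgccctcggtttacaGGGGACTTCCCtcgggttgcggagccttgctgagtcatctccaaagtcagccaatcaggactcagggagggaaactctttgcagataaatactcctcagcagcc

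The same 10 bases, GGGAATTTCC, began 71 bases before the start of Cxcl1, 97 bases before that of Cxcl2 and 73 bases before that of Cxcl3, in each case overlapped by a match on the other strand. Within 250 bases before the start, these 10 bases occurred on either strand in 28 of 32851 promoters (0.0852%). The 10 bases were taken from the promoters of these related genes, which are themselves among the 28, so the share is only a description. Cxcl10 held an ISRE core 213 bases before its start and NF-kB matches from 159 and 104 bases before it, the second overlapped by further matches. The NF-kB consensus was found in 7.25% of promoters, the ISRE core in 2.98% and both together in 0.164%. Neither was matched in the 250 bases before Cxcl9, Cxcl13 or Pf4. These are matches of letters, and binding was not measured.

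Members of the family rose at 3.5 h at both doses and at 48 h at the high dose, and none fell in any group. At 3.5 h with the low dose 4 of the 9 genes were higher with LECT2 (Cxcl1, Cxcl2, Cxcl9 and Cxcl10) at an adjusted p under 0.05 (limma, Benjamini-Hochberg over all genes tested), and 0 were lower, where 2.75% of all genes tested were higher and 2.15% lower. At 3.5 h with the high dose 6 of 9 were higher (the same 4 genes, Cxcl3 and Cxcl16) and 0 lower, against 10.2% and 11.7% of all genes. At 48 h with the low dose 0 of 9 were past the threshold in either direction, with 1 at an unadjusted p under 0.05, against 0.153% higher and 0.0191% lower among all genes. At 48 h with the high dose 4 of 9 were higher (Cxcl3, Cxcl10, Cxcl13 and Cxcl16) and 0 lower, against 4.31% and 6.91%. The median effect over the 9 genes was 2.03, 1.93, 0.72 and 1.58 on the log2 scale in that order, where the median of all genes lay between -0.03 and 0.02. In these bulk cultures fewer cells of a type and less RNA per cell cannot be told apart.

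These counts rest on few arrays. With scanner files as recorded, 0, 0, 1 and 0 of the 9 genes were past the threshold, the 1 being Cxcl16 at the low dose and 48 h. Leaving out replicate 1 of the low dose at 3.5 h left 0 calls and leaving out its replicate 2 left 1 (Cxcl10). For the high dose at 3.5 h the counts were 1 (Cxcl10) and 2 (Cxcl9 and Cxcl10), and for the high dose at 48 h they were 0 and 2 (Cxcl10 and Cxcl13), for replicate 1 and replicate 2 left out. At the low dose and 3.5 h the count was also 0 with only the arrays of that group in the fit, 1 without the filter on dim probes and 2 with a trended robust variance. With the replicate number as a block the fit called 6, 7, 1 and 5 of the 9 genes in the 4 groups, and every chemokine call above was kept. The added ones were Cxcl3 (adjusted p = 0.0286 with the block) and Cxcl13 (0.0203) at the low dose at 3.5 h, Cxcl5 (0.0279) at the high dose at 3.5 h, Cxcl10 (0.0303) at the low dose at 48 h and Cxcl9 (0.0468) at the high dose at 48 h.

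**Figure D1:**
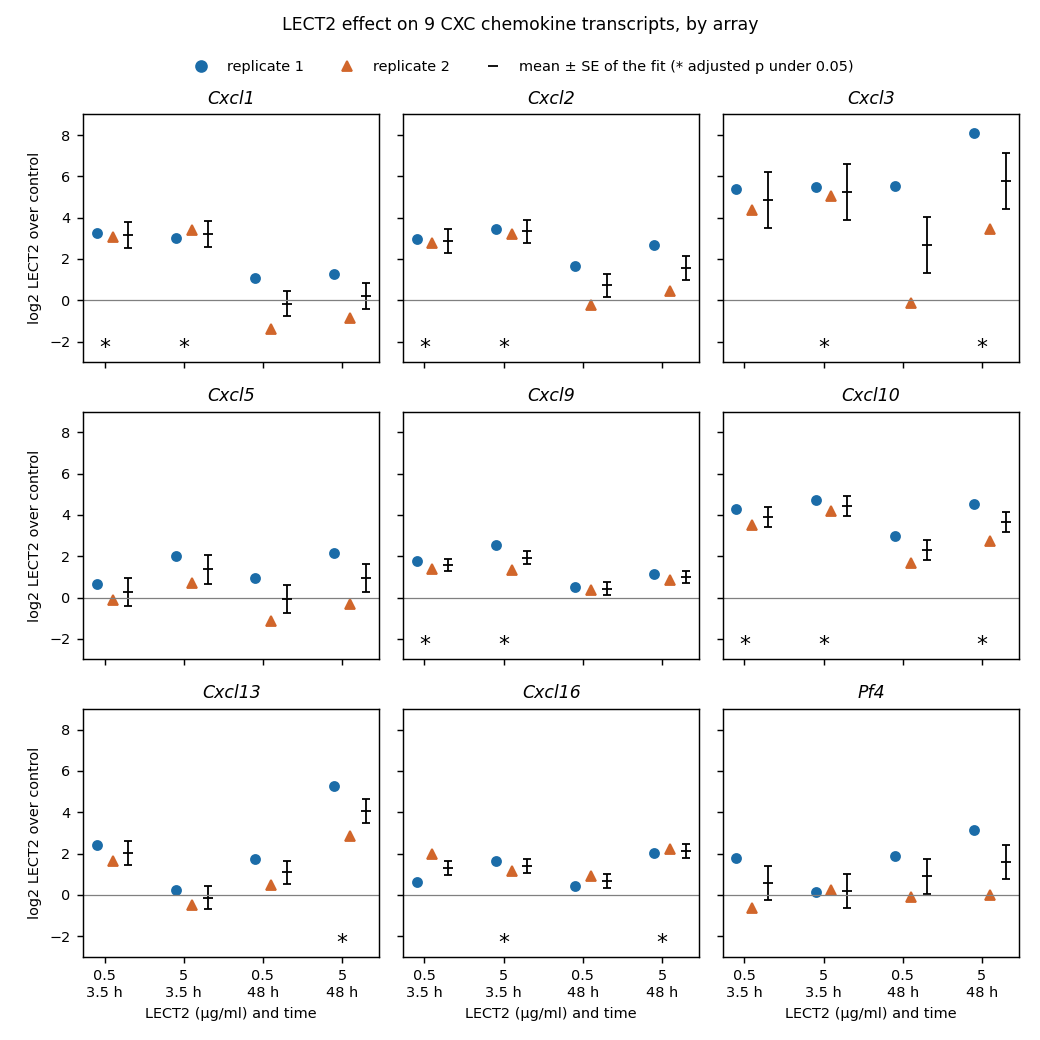
Log2 LECT2 over control on each of the 8 arrays for the 9 chemokines, with 1 panel per gene. Circles are replicate 1, triangles replicate 2, bars the fitted mean with its standard error, and asterisks mark an adjusted p under 0.05. The symbols of a group lie close together at 3.5 h for Cxcl1 and Cxcl2. They lie far apart at 48 h for Cxcl1, Cxcl2, Cxcl3, Cxcl5 and Pf4, and at the high dose at 48 h for Cxcl13.

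Among the ELR chemokines, Cxcl1 and Cxcl2, which recruit neutrophils to sites of injury, rose at both doses at 3.5 h. On the low dose arrays at 3.5 h the log2 ratio of LECT2 over control was 3.27 and 3.05 for Cxcl1, and on the high dose arrays it was 2.99 and 3.40. For Cxcl2 the values were 2.95 and 2.78 at the low dose and 3.45 and 3.23 at the high dose. All 4 early arrays were thus high for both genes, and the doses overlapped for Cxcl1 only. Cxcl1 was 8.93-fold higher at the low dose (log2 3.16 ± 0.62 SE, n = 2, adjusted p = 0.0345) and 9.18-fold higher at the high dose (log2 3.20 ± 0.62 SE, n = 2, adjusted p = 0.0119). Cxcl2 was 7.29-fold higher at the low dose (log2 2.87 ± 0.56 SE, n = 2, adjusted p = 0.0328) and 10.1-fold higher at the high dose (log2 3.34 ± 0.56 SE, n = 2, adjusted p = 0.00694). With files as recorded the log2 effects were 2.40 and 1.13 for Cxcl1 and 2.19 and 1.77 for Cxcl2 (low dose, then high dose), none past the threshold.

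Cxcl3, a close relative of Cxcl1 and Cxcl2, had the highest mean ratio of the 9 genes in each of the 4 groups. Its log2 values were 5.37 and 4.35 at the low dose and 5.49 and 5.03 at the high dose at 3.5 h, all 4 of them high. At 48 h they were 5.52 and -0.13 at the low dose and 8.10 and 3.43 at the high dose, so that the low dose arrays disagreed and both high dose arrays were above 0. Cxcl3 was 38.4-fold higher at the high dose at 3.5 h (log2 5.26 ± 1.36 SE, n = 2, adjusted p = 0.0314) and 54.3-fold higher at the high dose at 48 h (log2 5.76 ± 1.36 SE, n = 2, adjusted p = 0.0370). At the low dose its mean was 4.86 at 3.5 h (adjusted p = 0.0867) and 2.69 at 48 h (adjusted p = 0.567), where the control channel was not well above background on replicate 1. The call at 48 h ended without the filter on dim probes, and with files as recorded the high dose values were 3.92 at 3.5 h and 2.59 at 48 h, neither past the threshold.

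Cxcl5, the fourth ELR chemokine, passed the threshold in no group without the replicate block. Its log2 values were 0.65 and -0.10 at the low dose and 2.01 and 0.70 at the high dose at 3.5 h, and 0.97 and -1.15 at the low dose and 2.16 and -0.29 at the high dose at 48 h. Replicate 1 was the higher array in all 4 groups. The mean was largest at the high dose at 3.5 h, at 1.36 ± 0.68 (SE, n = 2, adjusted p = 0.186). Probes of related ELR genes can bind each other's RNA, and this was not tested.

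At 48 h the ELR genes divided the replicates. Cxcl1 was at 1.06 and -1.38 at the low dose and at 1.27 and -0.88 at the high dose, and Cxcl2 at 1.64 and -0.21 and at 2.66 and 0.46. On replicate 2 of the low dose all 4 ELR genes were below 0, between -1.38 and -0.13, while on replicate 1 all 4 were above 0, between 0.97 and 5.52. The gap between the replicates of the low dose was 2.43 for Cxcl1, 1.85 for Cxcl2, 5.65 for Cxcl3 and 2.12 for Cxcl5, against a median gap of 0.38 over all genes. Gaps as large occurred in 0.66%, 1.92%, 0.03% and 1.25% of genes in that order. The value of Cxcl3 is not exact, because the control channel of replicate 1 was not well above background, and the normalised channels of the matched file differed there by less (10.26 with LECT2 and 8.67 in the control). At the high dose the gaps were 2.15, 2.20, 4.67 and 2.45 against a median of 0.45, and gaps as large occurred in 1.51%, 1.37%, 0.01% and 0.71% of genes. Wide gaps were not particular to the ELR genes. At the high dose they were 1.78 for Cxcl10, 2.42 for Cxcl13 and 3.14 for Pf4, as large in 3.47%, 0.78% and 0.15% of genes. At the low dose these 3 genes had gaps of 1.29, 1.23 and 2.00. For Cxcl9 and Cxcl16 they were 0.16 and -0.47 at the low dose and 0.32 and -0.18 at the high dose. The mean of Cxcl1 was -0.16 at the low dose and 0.19 at the high dose (± 0.62 SE, n = 2 each, adjusted p = 0.964 and 0.867).

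The intensities of the channels, taken from the matched files after normalisation, show where the replicates parted. For Cxcl2 at 48 h the LECT2 channel was at 9.99 and 10.08 (log2 intensity) on the low dose arrays and at 10.83 and 10.85 on the high dose arrays. Its control channel was at 9.17 and 10.28 on the low dose arrays and at 8.46 and 10.35 on the high dose arrays. The LECT2 channel thus agreed between replicates, and the control channel of replicate 2 was higher by 1.11 and 1.89. For Cxcl3 the control channel of replicate 2 was higher by 1.73 at the low dose and 3.28 at the high dose, and the LECT2 channel differed by 0.03 and -0.48. On a scale set only by each array's 75th percentile, the control gap of Cxcl3 at the low dose was 5.06, so its size depends on the scale. For Cxcl5 the control channel of replicate 2 was higher by 2.25 and 2.71, with differences of 0.45 and 0.44 in the LECT2 channel. Cxcl1 moved in both channels, by 1.44 and 1.67 in the control channel and by -1.01 and -0.53 in the LECT2 channel. The larger gap lay in the control channel for these 4 genes on that scale too. After normalisation the same held at the high dose for Cxcl10 (0.82 in the control channel and -0.48 with LECT2) and Cxcl13 (1.30 and -0.95).

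**Figure D2:**
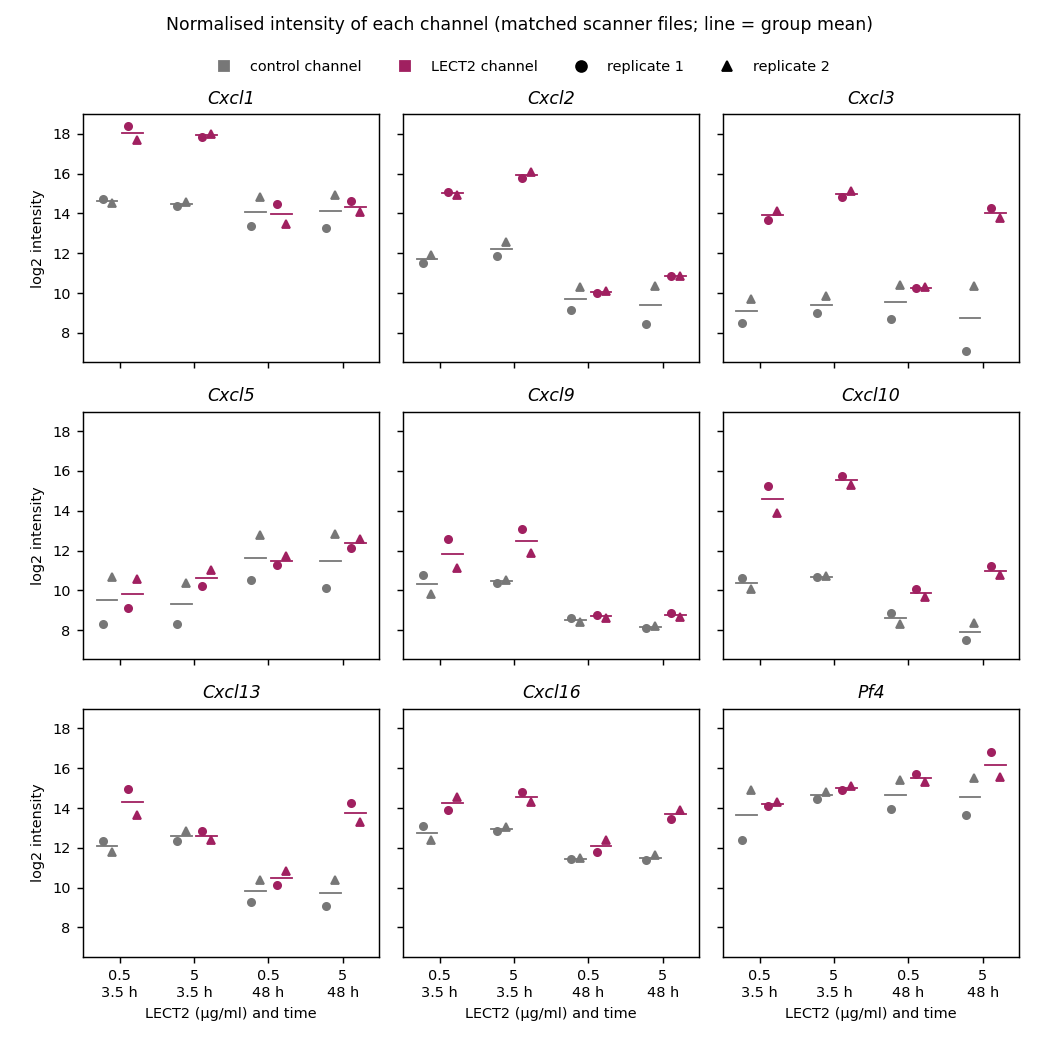
Log2 intensity of the control channel (grey) and of the LECT2 channel (red) in the 4 groups, from scanner files matched to the columns, with circles for replicate 1, triangles for replicate 2 and a line at the group mean. At 48 h the grey symbols of Cxcl2, Cxcl3 and Cxcl5 are far apart and the red symbols close together, and for Cxcl2, Cxcl9 and Cxcl10 both channels lie lower at 48 h than at 3.5 h.

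The interferon-induced chemokines kept 1 direction on every array. Cxcl10, which draws T cells and natural killer cells, had log2 values of 4.31 and 3.50 at the low dose and 4.71 and 4.19 at the high dose at 3.5 h, and 2.96 and 1.67 at the low dose and 4.54 and 2.76 at the high dose at 48 h. It was above 0 on 8 of 8 arrays and lowest on replicate 2 of the low dose at 48 h. Cxcl10 was 15.0-fold higher at the low dose at 3.5 h (log2 3.91 ± 0.48 SE, n = 2, adjusted p = 0.00779) and 21.9-fold higher at the high dose at 3.5 h (log2 4.45 ± 0.48 SE, n = 2, adjusted p = 0.00164). At 48 h it was 12.6-fold higher at the high dose (log2 3.65 ± 0.48 SE, n = 2, adjusted p = 0.00769), and at the low dose its mean of 2.32 ± 0.48 did not pass (adjusted p = 0.133). With files as recorded its early log2 effects were 2.90 (low dose) and 3.11 (high dose) and its late effect at the high dose 2.99, all above 0 and none past the threshold.

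The signal of Cxcl10 was lower at 48 h than at 3.5 h in both channels. Its LECT2 channel was at 15.24 and 13.89 (log2 intensity) at the low dose and at 15.77 and 15.31 at the high dose at 3.5 h, and at 10.05 and 9.68 and at 11.23 and 10.75 at 48 h. Its control channel averaged 10.35 ± 0.40 (SD, n = 2) at the low dose and 10.68 ± 0.03 at the high dose at 3.5 h, and 8.59 ± 0.39 and 7.93 ± 0.58 at 48 h. Both channels were lower on every 48 h array than on any 3.5 h array. The same held for Cxcl2, whose LECT2 channel lay between 14.95 and 16.09 at 3.5 h and between 9.99 and 10.85 at 48 h. These levels rest on the matched files and on different slides, and the part of the slide in them was not tested.

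Cxcl9, which shares the receptor Cxcr3 with Cxcl10, had smaller means than Cxcl10 in all 4 groups by its brighter probe. This probe gave log2 values of 1.79 and 1.39 at the low dose and 2.53 and 1.34 at the high dose at 3.5 h, and 0.51 and 0.35 at the low dose and 1.15 and 0.83 at the high dose at 48 h. All 8 arrays of this probe were above 0, and its late arrays were all below its early ones. Cxcl9 was 3.01-fold higher at the low dose at 3.5 h (log2 1.59 ± 0.30 SE, n = 2, adjusted p = 0.0313) and 3.82-fold higher at the high dose (log2 1.93 ± 0.30 SE, n = 2, adjusted p = 0.00574). The late means of 0.43 and 0.99 did not pass (adjusted p = 0.696 and 0.0770). The dimmer probe went another way, with values of 3.30 and 2.20 at either dose at 3.5 h, 3.91 and 0.75 at the low dose at 48 h and 3.41 and 0.30 at the high dose at 48 h. It was above 0 on all 8 arrays and highest on replicate 1 at 48 h, with a mean of 2.75 ± 0.87 at either dose at 3.5 h that did not pass (adjusted p = 0.119 at the low dose and 0.0587 at the high dose), and its control channel was not well above background on replicate 1 of either dose at 48 h. With the mean of both probes the call at the low dose ended, and with files as recorded the early values were 0.96 and 0.89, neither past the threshold.

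Set against each other, the ELR and the interferon-induced genes had close medians at 3.5 h and lay further apart on replicate 2 at 48 h. The median log2 value of the 4 ELR genes on the 4 early arrays was 3.11, 2.92, 3.22 and 3.32, and that of Cxcl9 and Cxcl10 was 3.05, 2.44, 3.62 and 2.77 (low dose replicates, then high dose replicates). At 48 h the medians of the ELR genes were 1.35 and -0.68 at the low dose and 2.41 and 0.08 at the high dose, and those of Cxcl9 and Cxcl10 were 1.74 and 1.01 and 2.85 and 1.80. On the replicate 2 arrays at 48 h, 0 of 4 ELR genes at the low dose and 2 of 4 at the high dose were above 0, and 2 of 2 interferon-induced genes were above 0 on each. The difference between the sets was not tested.

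Cxcl13, the B cell chemokine, had its largest effect at the high dose at 48 h. Its log2 values were 2.40 and 1.66 at the low dose and 0.24 and -0.51 at the high dose at 3.5 h, so that the low dose arrays were the higher ones. At 48 h they were 1.72 and 0.49 at the low dose and 5.27 and 2.84 at the high dose, and the order of the doses was the other way round. Neither pair of doses overlapped. Cxcl13 was 16.6-fold higher at the high dose at 48 h (log2 4.06 ± 0.56 SE, n = 2, adjusted p = 0.00905). Its means of 2.03 at the low dose at 3.5 h, -0.13 at the high dose at 3.5 h and 1.10 at the low dose at 48 h did not pass (± 0.56 SE, n = 2 each, adjusted p = 0.0842, 0.889 and 0.573). From files as recorded the value at the high dose and 48 h was 0.01, not past the threshold.

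The LECT2 channel of Cxcl13 carried the dose order. It was at 14.94 and 13.65 (log2 intensity) at the low dose and at 12.85 and 12.40 at the high dose at 3.5 h, and at 10.11 and 10.84 at the low dose and at 14.24 and 13.29 at the high dose at 48 h. Its control channel was at 12.36, 11.80, 12.36 and 12.84 on the early arrays and at 9.26, 10.37, 9.10 and 10.40 on the late ones. The late level at the high dose was therefore within the range of the early LECT2 levels, and the late controls were lower than the early ones.

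Cxcl16, the membrane-bound ligand of Cxcr6, was above 0 on 8 of 8 arrays. Its log2 values were 0.63 and 1.96 at the low dose and 1.66 and 1.14 at the high dose at 3.5 h, and 0.42 and 0.89 at the low dose and 2.04 and 2.22 at the high dose at 48 h. The doses overlapped at 3.5 h and did not at 48 h. Cxcl16 was 2.64-fold higher at the high dose at 3.5 h (log2 1.40 ± 0.33 SE, n = 2, adjusted p = 0.0242) and 4.37-fold higher at the high dose at 48 h (log2 2.13 ± 0.33 SE, n = 2, adjusted p = 0.0124). The low dose means of 1.29 at 3.5 h and 0.66 at 48 h did not pass (adjusted p = 0.0724 and 0.575). With the median of each array in place of loess the early call ended (log2 0.67), and with files as recorded both calls ended (log2 2.23 and 1.10).

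Pf4, the platelet chemokine, passed the threshold in no group. Its log2 values were 1.77 and -0.65 at the low dose and 0.14 and 0.25 at the high dose at 3.5 h, and 1.89 and -0.10 at the low dose and 3.15 and 0.01 at the high dose at 48 h. The replicates disagreed in 3 of the 4 groups, with replicate 1 high and replicate 2 near or below 0. At 48 h the control channel of replicate 2 was higher by 1.47 and 1.83 at the low and high dose, and its LECT2 channel differed by -0.43 and -1.25. Of the platelet and megakaryocyte markers, 5 of 6 were tested and Gp9 was below background. Their summed intensity at 48 h was 2180 to 7750 with LECT2 and 1690 to 4820 in controls, and their part in the values of Pf4 was not tested.

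Dose was compared by the difference of the log2 effects, high minus low. In the fit 0 of the 9 genes passed at 3.5 h and 0 at 48 h (limma, adjusted over all genes), as did 0.0% of all genes at each time, and at an unadjusted p under 0.05 there were 1 and 2 of the 9 and 2048 and 2738 of all genes. Within replicate number, the effect of the high dose was above that of the low dose in both replicates for 4 of 9 genes at 3.5 h, where 28.4% of all genes did so, and for 9 of 9 at 48 h, where 31.8% did so. These counts pair the arrays by replicate number, and that pairing is unsettled. At 48 h replicate 1 of the low dose lay above replicate 2 of the high dose for Cxcl1, Cxcl2, Cxcl3, Cxcl5, Cxcl10 and Pf4. The counts also use the brighter probe of Cxcl9. Its dimmer probe was lower at the high dose than at the low dose in both replicates at 48 h (mean difference -0.48 ± 1.23 SE). At 48 h the differences in replicates 1 and 2 were 2.57 and 3.56 for Cxcl3, 3.55 and 2.36 for Cxcl13, 1.62 and 1.33 for Cxcl16, 1.58 and 1.09 for Cxcl10 and 1.02 and 0.67 for Cxcl2. The other 4 genes lay between 0.11 and 1.26. The 2 genes under an unadjusted p of 0.05 at 48 h were Cxcl13 (2.95 ± 0.80 SE, adjusted p = 0.319) and Cxcl16 (1.47 ± 0.47 SE, adjusted p = 0.382). With files as recorded the dose difference at 48 h was -2.80 for Cxcl13 and -0.92 for Cxcl16. Over all the alternative settings, the lowest dose difference at 48 h was below 0 for each of the 9 genes. It lay between -3.92 (Cxcl3) and -0.92 (Cxcl9 and Cxcl16), so the order of the doses depends on the setting.

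**Figure D3:**
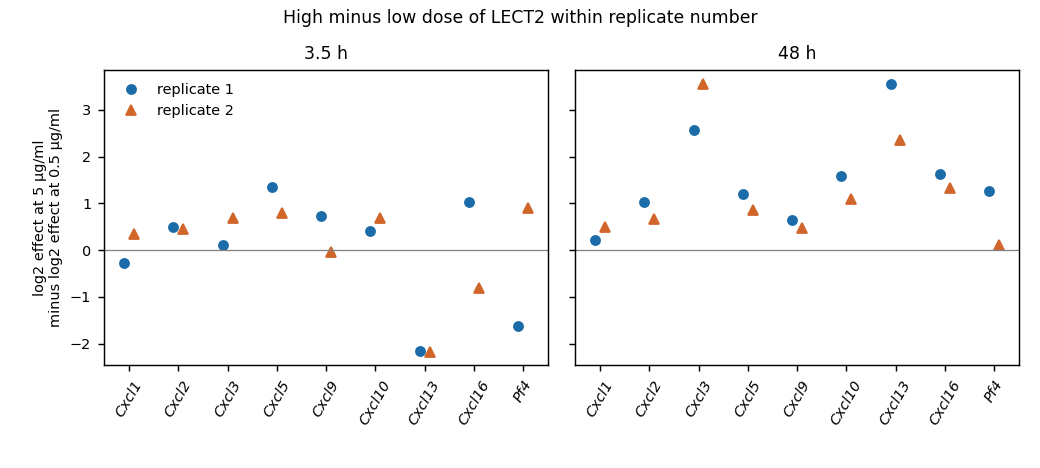
Difference of the log2 LECT2 effects, high minus low dose, within replicate 1 (circles) and replicate 2 (triangles) at 3.5 h and at 48 h. All 18 symbols at 48 h lie above 0, and at 3.5 h Cxcl13 lies below 0 in both replicates. The pairing of arrays by replicate number is unsettled. Cxcl9 is shown by its brighter probe only, and its dimmer probe was below 0 in both replicates at 48 h.

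At 3.5 h only Cxcl13 had an unadjusted p under 0.05, with a lower effect at the high dose in both replicates (-2.16 and -2.17, mean -2.16 ± 0.80 SE, adjusted p = 0.603). That difference was 0.66 with files as recorded. The change of its dose difference between the times, a contrast chosen after these values were seen, was 5.12 ± 1.12 (SE) and did not pass (adjusted p = 0.468). Of all genes 0.0% passed that contrast, with 2541 at an unadjusted p under 0.05.

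Time was compared as the effect at 48 h minus the effect at 3.5 h. At the low dose 0 of the 9 genes passed (4 at an unadjusted p under 0.05), where 0.0153% of all genes were higher at 48 h and 0.0841% lower. At the high dose 1 of 9 was higher and 0 lower, against 4.52% and 3.78% of all genes. The 1 was Cxcl13, whose effect was higher at 48 h by 4.19 ± 0.80 (SE, n = 2 and 2, adjusted p = 0.0258), an 18.2-fold larger ratio. This call ended with any of the 4 arrays left out, with values between 2.98 and 5.40, and with files as recorded the difference was -2.36. The effects of Cxcl1 and Cxcl2 were smaller at 48 h at both doses without passing (with the replicate block Cxcl1 passed at the high dose, adjusted p = 0.0484). Cxcl1 differed by -3.32 at the low dose and -3.01 at the high dose (± 0.88 SE, adjusted p = 0.244 and 0.0764), and Cxcl2 by -2.15 and -1.78 (± 0.79 SE, adjusted p = 0.398 and 0.191). Over all the alternative settings the difference of Cxcl1 ran from -4.54 to -0.01 at the low dose and from -4.08 to -0.08 at the high dose. That of Cxcl2 ran from -3.07 to 0.95 and from -2.88 to -0.12. Time differences hold the slide and the difference in how the columns of the times were made.

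**Figure D4:**
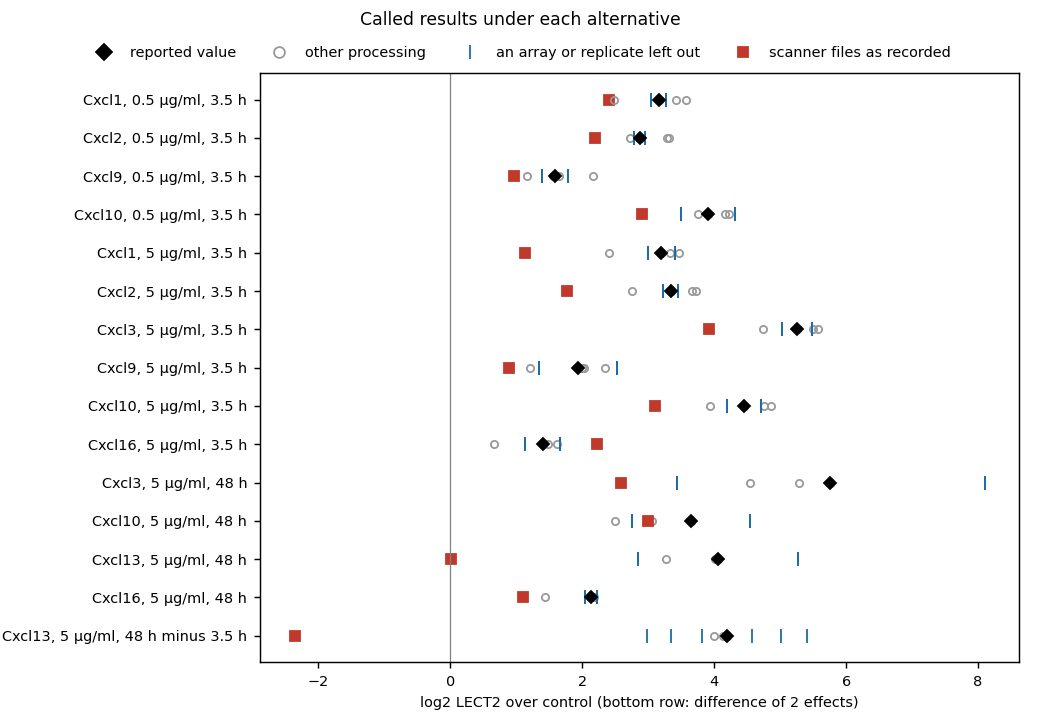
The 15 results past the threshold, 1 per line, under every alternative on the log2 scale. Diamonds are the reported values, open circles other processing, ticks fits with an array or a replicate left out, and squares the scanner files as recorded. All symbols of the 14 effects lie above 0, with the square of Cxcl13 at 48 h at 0.01, and the square of its time difference lies at -2.36.

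Genes of the NF-kB and inflammatory pathways to the ELR chemokines were higher too at 3.5 h. The 13 listed, called inducers for short, are NF-kB subunits, the inhibitor Nfkbia, Nfkbiz, inflammatory cytokines, Toll-like receptors and Myd88. Their part in the chemokine values was not tested. Of the 13, 12 rose at the low dose and 12 at the high dose, 0 fell, and Tlr4 did not pass at either. The largest at the high dose were Il1a (log2 5.94 ± 0.41 SE) and Tnf (5.82 ± 0.36), both inflammatory cytokines, then Il6 (3.77 ± 0.44) and Nfkbiz (3.54 ± 0.38), an NF-kB cofactor. At 48 h 0 of 13 passed at the low dose, and 8 rose at the high dose, led by Il1b (4.70 ± 0.46) and Il6 (3.24 ± 0.44). The effect was smaller at 48 h than at 3.5 h for 2 inducers at the low dose (Il1a, -5.38 ± 0.58, and Tnf, -4.71 ± 0.51) and for 7 at the high dose. From files as recorded 0 of 13 passed at either dose at 3.5 h or at the high dose at 48 h, and at the low dose at 3.5 h 0 of 13 passed with only the arrays of that group in the fit. Without replicate 1 the counts were 2 (low dose, 3.5 h), 7 (high dose, 3.5 h) and 0 (high dose, 48 h), and without replicate 2 they were 10, 12 and 1. With median centring 3 rose and 3 fell at the high dose at 48 h. The shares of all genes called in these comparisons are those given for the chemokines.

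Of 13 genes of the interferon pathway, 1 rose at the low dose at 3.5 h (Irf1, a transcription factor of the response, 1.58 ± 0.24), 6 at the high dose at 3.5 h, 0 at the low dose at 48 h and 7 at the high dose at 48 h. Of all genes 2.75%, 10.2%, 0.153% and 4.31% were higher in these groups, in that order. At 3.5 h the largest at the high dose were Ifng (3.25 ± 0.73), the gene of interferon gamma, and Irf7 (2.10 ± 0.53). At the high dose at 48 h Ifng passed in the limma fit of the deposited ratios (adjusted p = 0.00601). Its control channel was not well above background on either array, so the size is given only as a bound, at least 7.47-fold higher. The bound is from the matched files, and that p does not belong to it. Its floor is the lowest signal well above background on the array or the dim probe's own, whichever is higher. Irf7 (3.53 ± 0.53) and Irf1 (2.22 ± 0.24) rose as well at 48 h, and Ifngr1, a subunit of the receptor for interferon gamma, fell (-1.36 ± 0.22). With an array left out 0 to 2 of the 13 genes passed in any of the 4 effects.

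Of the 8 CXC receptors, Cxcr4, the receptor of Cxcl12, fell at the low dose at 3.5 h (-2.55 ± 0.31, n = 2), at the high dose at 3.5 h (-2.59 ± 0.31) and at the high dose at 48 h (-1.38 ± 0.31). Ackr1, a scavenging chemokine receptor, rose at the high dose at 3.5 h (0.70 ± 0.21). At the high dose at 48 h Cxcr6, the receptor of Cxcl16, rose (2.29 ± 0.36), and Cxcr3, the receptor of Cxcl9 and Cxcl10, fell (-1.32 ± 0.27) with its LECT2 channel above background on 1 of 2 arrays. Cxcr2, the receptor of the ELR chemokines, did not pass in any group (between -0.10 and 0.60). Of the other CXC ligands 4 of 5 were tested and 0 rose, Cxcl14 fell at the high dose at 3.5 h (-1.32 ± 0.29) and Cxcl12 at the high dose at 48 h (-1.21 ± 0.30). Among all genes 10.2% were higher and 11.7% lower at the high dose at 3.5 h, and 4.31% and 6.91% at the high dose at 48 h. At the low dose at 3.5 h 2.15% were lower. Neither list was tested against these shares.

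Of 6 regulators of chemokine mRNA half-life, Zc3h12a, an RNase that degrades inflammatory mRNA, rose at 3.5 h at the low dose (1.01 ± 0.22) and the high dose (1.64 ± 0.22), and Zfp36l1, an mRNA-binding protein of the Zfp36 family, fell (-1.66 ± 0.35 and -1.33 ± 0.35). Traf3ip2 (1.76 ± 0.33) and Zfp36 (1.04 ± 0.29), which destabilises mRNA, rose at the high dose at 3.5 h, and 0 of 6 passed at 48 h. At the high dose the effects on Zc3h12a and Zfp36 were smaller at 48 h than at 3.5 h (-1.53 ± 0.32 and -1.81 ± 0.40). Of 6 proteases that shed or cut chemokines, Adam10, which sheds Cxcl16, fell at the high dose at 3.5 h (-0.93 ± 0.22) and rose at the high dose at 48 h (0.98 ± 0.22), a difference of 1.91 ± 0.31 between the times (adjusted p = 0.0204). Mmp12, a macrophage elastase, fell at the high dose at both times (-1.53 ± 0.42 and -3.02 ± 0.42). Mmp8 fell at both doses at 3.5 h (-1.41 ± 0.27 and -1.32 ± 0.27) and Adam17 at the high dose at 3.5 h (-0.99 ± 0.25). Among all genes 2.75% were higher and 2.15% lower at the low dose at 3.5 h, and 10.2% and 11.7% at the high dose at 3.5 h. The shares were 4.31% and 6.91% at the high dose at 48 h, and 4.52% and 3.78% for the time difference at the high dose. Neither list was tested against these shares.

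None of the calls in these 6 lists was kept with files as recorded, where 0 of all genes passed at either dose at 3.5 h and for the time differences, and 1 at the high dose at 48 h. The low dose at 48 h, where none was reported in the list of inducers or the interferon list, then had 1 call in each. The median of the inducers was 1.34, 1.52, 2.15 and 1.24 with files as recorded and 2.13, 2.69, 0.34 and 1.06 as reported (low and high dose at 3.5 h, then at 48 h). The log2 values with files as recorded at the high dose at 3.5 h were 3.38 for Il1a, 2.83 for Tnf, 2.96 for Il6, 1.77 for Irf1 and -1.84 for Cxcr4, with the sign of the reported values. At the high dose at 48 h they were 1.77 for Ifng, 0.36 for Cxcr6, -0.38 for Cxcr3 and -1.78 for Mmp12. Among the genes named above the sign changed for Adam10 at both times (0.43 and -0.32), for Adam17 (0.22) and Zfp36 (-0.34) at the high dose at 3.5 h, and for the time differences of Tnf and Il1a at the low dose (0.11 and 1.25) and of Adam10 (-0.74), Zc3h12a (0.58) and Zfp36 (0.94) at the high dose. With the replicate block the calls of Zc3h12a at the low dose at 3.5 h (adjusted p = 0.0534) and Ackr1 (0.0571) ended, and Il1b (0.0400), Ifng (0.0441) and Irf7 (0.00729) passed at the low dose at 48 h. The control channel of Ifng was well above background on 0 of 2 arrays there. The block added other calls in these lists, not all given here. Ackr3 passed as lower at 3.5 h at both doses (0.0249 and 0.0125) and as higher at the high dose at 48 h (0.00529). Cxcr5 (0.0352) passed at the high dose at 3.5 h, Ifng (0.0495) at the low dose at 3.5 h and Mmp8 (0.046) at the high dose at 48 h.

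The genes whose 8 array values were most like those of Cxcl2 were Gpr18 (Pearson r = 0.990), Grik3 (0.987) and Eif1 (0.978), and those most like Cxcl10 were Tnfsf9 (0.981), Scrt1 (0.978) and Gtf2h3 (0.974). The arrays share 4 conditions in pairs, so the likeness is a description. The measure takes no account of size, and Gpr18, a G protein-coupled receptor, lay between 0.43 and 2.80 and Grik3, a glutamate receptor subunit, between -1.71 and -0.01.

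Some markers of macrophages and of other cells passed the threshold. Of all genes 2.75% were higher and 2.15% lower at the low dose at 3.5 h. The shares were 10.2% and 11.7% at the high dose at 3.5 h, and 4.31% and 6.91% at the high dose at 48 h. The marker lists are short, and none was tested against these shares. Macrophage markers were all measured except Cd68, for which no probe was matched, and their summed intensity lay between 145000 and 487000 in a channel. Of their 9 tested markers Timd4 rose and Gata6 fell at the low dose at 3.5 h, Cd14 rose and Csf1r and Lyz2 fell at the high dose at 3.5 h, and Gata6 fell at the high dose at 48 h. The neutrophil sum at the high dose at 48 h was 4110 to 6430 with LECT2 and 910 to 1990 in controls, with S100a8 higher (2.99 ± 0.35), 1 of 6 tested, and Retnlg below background. The median of the 6 was -0.21 there. Camp was at 0.57, and Ngp (-1.55), S100a9 (-0.40), Elane (-0.25) and Mpo (-0.16) were below 0. With the replicate block Ngp passed as lower (adjusted p = 0.0246). The neutrophil sum at the high dose at 3.5 h was 5070 to 5720 with LECT2 and 2590 to 2810 in controls, with 1 of 6 higher (Camp, 1.31 ± 0.30). The median of the 6 was -0.19 there. S100a8 (1.08) and Elane (0.13) were above 0, and Mpo (-1.01), S100a9 (-0.70) and Ngp (-0.50) below 0. The dendritic cell sum at the high dose at 3.5 h was 6870 to 7520 with LECT2 and 1680 to 1770 in controls, with 3 of 5 markers higher (Zbtb46, 3.31 ± 0.23, the largest) and 1 lower, and at the low dose 2740 to 3350 with LECT2 and 813 to 1270 in controls, with 1 of 5 higher (Zbtb46, 2.72 ± 0.23). The mesothelium and fibroblast sum at the low dose at 3.5 h was 8240 to 9760 with LECT2 and 10600 to 37800 in controls, and 2 of 8 markers fell there (Wt1, -1.67 ± 0.20, and Pdgfra, -1.33 ± 0.27). The same 2 markers fell at the high dose at 3.5 h (-1.25 ± 0.20 and -1.41 ± 0.27) and at 48 h (-1.68 ± 0.20 and -3.51 ± 0.27), where the sums with LECT2 were 14600 to 15800 and 31600 to 52300 and in controls 15800 to 39900 and 35000 to 83000. The T and NK cell sum at the high dose at 48 h was 8170 to 9120 with LECT2 and 6140 to 6480 in controls, with 1 of 7 markers higher and 1 lower. At 3.5 h 1 of 7 was higher at each dose, Cd247 (1.08 ± 0.23 and 1.42 ± 0.23), with sums of 5880 to 7000 and 9450 to 10400 with LECT2 and 4410 to 5060 and 6670 to 7070 in controls. No marker of B cells, mast cells or red blood cells passed in any comparison. No marker passed at the low dose at 48 h. None of these marker calls was kept with files as recorded, and with the replicate block those of Csf1r and the lower dendritic cell marker, Clec9a, ended. The block also added marker calls, not all given here. Among them were S100a8 at the high dose at 3.5 h (adjusted p = 0.0455) and, at the high dose at 48 h, Cd14 as higher (0.0391) and Lyz2 as lower (0.0302). The part of these cells in the chemokine values was not tested.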

How the data were processed

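Total RNA of 8 two-colour arrays was analysed. Slides were read with Agilent Feature Extraction 10.7.3.1, per the submitters' processing notes. The authors deposited scanner files with median and processed intensity per channel and a log10 ratio of red over green, and a table of log2 ratios of control over LECT2, whose making is not given in the sources used here. Its sign was turned, and the sign follows the dyes in the labels and the match to the scanner files. Column medians lay between -0.22 and 0.08. Probe accessions were named through RefSeq (GRCm38.p6), which gave 26412 of 39429 probes a gene. Of all probes 31615 passed the filter, and the brightest probe of a gene was used. Group means, dose differences and time differences were tested with limma 3.58.1 in R 4.3.3 (1 mean per group, 8 arrays, 4 residual degrees of freedom, adjusted p under 0.05 over 26148 features), after a test on simulated data. The median standard error was 0.28 for an effect and 0.40 for a difference, and the number of arrays limits the precision. Channel levels came from matched files (normexp with offset 50, loess, Aquantile scaling), on a log2 scale. The series' design text tells of 2 experiments, but the labels do not say that a replicate number marks one, and deviations of same-numbered arrays correlated at r = 0.04, 0.17, 0.20, 0.00, -0.06 and 0.47 between groups. The pairing is thus unsettled, and the reported fit has no replicate block. Values with the block are given for each chemokine call that changes, and for only some of the changed calls in the other lists. Members, lists and motifs were chosen with earlier results of these data known. The genes named are all members, at most 4 called genes of a list per comparison, and the 3 genes most like Cxcl2 and Cxcl10. The values of some genes that this rule names are not reported here.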

Additional observations from a re-analysis of the deposited data

Results flagged for a closer look

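The effect of LECT2 on Cxcl13 at the high dose differed between the times by 4.19 on the log2 scale (48 h minus 3.5 h, ± 0.80 SE, limma, adjusted p = 0.0258). It was picked out because the test of the difference itself passed. The log2 values were 0.24 and -0.51 at 3.5 h and 5.27 and 2.84 at 48 h, higher in 2 of 2 late arrays. Time and slide cannot be told apart under the matched link, and the difference was -2.36 with files as recorded.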

How the results depend on the processing

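Of the 15 called results, 15 kept their call with matched files after loess, with processed signals, with the stricter filter on all 8 arrays and with the replicate block, 14 with median centring and with the mean of all probes, 13 with a trended robust variance, 11 without the filter and with only the arrays compared, and 0 with files as recorded, where the time difference of Cxcl13 reversed to -2.36. The number of members called at the low dose at 3.5 h (4) was 7 with loess, 2 with the trended variance, 1 without the filter and 0 with only the arrays compared. With files as recorded the counts were 0 at either dose at 3.5 h, 1 (low dose) and 0 (high dose) at 48 h and 0 for the time difference at the high dose. The time difference at the low dose (0) was 1 with loess or median centring, and that at the high dose (1) was 5 with loess and 2 with the stricter filter or only the arrays compared. The replicate block gave counts of 6, 7, 1 and 5 for the 4 effects and 2 for the time difference at the high dose, and 0 for the other differences, and it changed no other call of a chemokine than those named in the results. With an array left out the counts ranged from 0 to 1 (low dose, 3.5 h), from 1 to 2 (high dose, 3.5 h), from 0 to 2 (high dose, 48 h) and from 0 to 0 (time difference, high dose), the lone array being assumed to vary like the other groups. Leaving out all arrays of a replicate number left no residual degrees of freedom, so it gave values without a test. Over all genes, the calls ranged over these settings from 0 to 3298 (1279 reported), 0 to 11853 (5724), 0 to 97 (45) and 1 to 8665 (2933) for the 4 effects, from 0 to 436 (0) and 0 to 21 (0) for dose, and from 0 to 240 (26) and 0 to 4598 (2170) for time. Median centring moved the median of all genes to -0.13, -0.26, -0.14 and -0.24 and the split of higher and lower calls from 718 and 561 to 765 and 2533, from 2661 and 3063 to 2905 and 8948, from 40 and 5 to 22 and 43, and from 1126 and 1807 to 1836 and 6829. A dose difference at 48 h from those 4 arrays alone with a replicate block, added after the data were seen, called 0 members. Signal limits Cxcl3, whose control was dim on 1 array at 48 h.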
